A study of Mus musculus with 9 samples.

Results

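The genes described here are 10 members of the mammalian circadian clock, Arntl, Clock, Npas2, Per1, Per2, Per3, Nr1d1, Nr1d2, Dbp and Tef, out of 23069 genes measured in left ventricles of mice. They were taken by gene symbol from the annotation in the authors' comparison table, and each was represented by the probe set with the highest mean signal over the 9 arrays. The 10 genes have 13 probe sets, because Npas2, Nr1d2 and Dbp have a second, dimmer one, which is given beside the first. The study ran 1 array per sample on RNA from the left ventricle of male mice, in 3 groups of 3 arrays. The first group was wild type and received a vitamin A sufficient diet. The other groups carried the genotype written LRAT -/- in the labels (Lrat-/- here), one on the sufficient diet and one on a vitamin A deficient diet. All animals were on their diet for 50 days, and the sufficient diet was the deficient one with 250000 U/kg of retinol palmitate added. Lrat encodes lecithin retinol acyltransferase, the enzyme that esterifies retinol for storage. No wild-type sample on the deficient diet is among the groups, so the diets were compared within Lrat-/- alone. The mice were housed under 12 h of light and 12 h of dark, and the hour at which hearts were collected is not given in the labels used here. Nothing in the labels says whether the arrays of a group are from separate animals, so the p-values measure the spread between these samples.

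The clock is a loop of transcription that repeats with a daily period in almost every cell, heart muscle cells included. ARNTL (also called BMAL1) pairs with CLOCK or NPAS2 and binds E-boxes, short DNA sites in the promoters of the Per, Nr1d, Dbp and Tef genes. PER proteins then enter the nucleus and inhibit the pair, NR1D1 and NR1D2 (REV-ERB alpha and beta) repress Arntl through ROREs, and DBP and TEF activate genes with D-boxes. Arntl and the output genes peak at roughly opposite times of day, and each heart is a sample of the loop at a single time. Retinoic acid receptors have been reported to bind CLOCK and NPAS2 in cells of blood vessels, which gives this gene set a link to vitamin A.

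RefSeq promoter windows (GRCm38.p6, from 250 bases before a gene's start to 50 after it) were given for 9 of the 10 genes, all but Per2. They are shown for the 5 genes in which an exact match to a known clock site was found, with the match in capitals. The sites searched on both strands were the E-box CACGTG, the variant E-box CACGTT, the D-boxes TTATGTAA and TTACGTAA, and the ROREs TAGGTCA and TGGGTCA. None of these contains another. An Arntl window (chr7:113207261-113207560, plus strand) holds a RORE at base 281, counted from the 5′ end, which lies after the annotated start. A Per1 window (chr11:69098699-69098998, plus strand) holds an E-box at base 85. The Per3 window (chr4:151044616-151044915, minus strand) holds a D-box at bases 46 and 93. The Nr1d1 window (chr11:98775328-98775627, minus strand) holds the variant E-box at base 223, read on the opposite strand as AACGTG. The first Tef window (chr15:81802423-81802722, plus strand) holds an E-box at base 124.
Arntl: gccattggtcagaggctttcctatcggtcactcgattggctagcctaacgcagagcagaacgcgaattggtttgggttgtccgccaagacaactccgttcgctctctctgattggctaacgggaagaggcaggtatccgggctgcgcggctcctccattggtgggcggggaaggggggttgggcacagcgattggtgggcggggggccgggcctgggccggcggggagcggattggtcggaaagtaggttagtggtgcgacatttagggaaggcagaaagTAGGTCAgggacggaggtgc
Per1: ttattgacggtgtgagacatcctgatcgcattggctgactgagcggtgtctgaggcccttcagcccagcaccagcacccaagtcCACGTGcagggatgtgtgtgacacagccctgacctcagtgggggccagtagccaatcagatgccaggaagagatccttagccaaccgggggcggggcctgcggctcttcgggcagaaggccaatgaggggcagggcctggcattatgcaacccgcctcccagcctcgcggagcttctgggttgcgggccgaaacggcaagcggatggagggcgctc
Per3: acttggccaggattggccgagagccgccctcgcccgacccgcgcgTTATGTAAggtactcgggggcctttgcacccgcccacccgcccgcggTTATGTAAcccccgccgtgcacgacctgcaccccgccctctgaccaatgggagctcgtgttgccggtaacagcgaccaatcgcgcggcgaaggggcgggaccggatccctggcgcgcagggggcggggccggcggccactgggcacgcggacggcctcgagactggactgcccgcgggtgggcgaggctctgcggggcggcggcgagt
Nr1d1: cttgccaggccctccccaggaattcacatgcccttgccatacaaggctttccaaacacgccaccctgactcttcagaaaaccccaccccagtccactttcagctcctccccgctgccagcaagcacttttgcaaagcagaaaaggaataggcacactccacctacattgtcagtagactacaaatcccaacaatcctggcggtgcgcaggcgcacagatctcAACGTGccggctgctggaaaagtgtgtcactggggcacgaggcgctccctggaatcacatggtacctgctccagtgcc
Tef: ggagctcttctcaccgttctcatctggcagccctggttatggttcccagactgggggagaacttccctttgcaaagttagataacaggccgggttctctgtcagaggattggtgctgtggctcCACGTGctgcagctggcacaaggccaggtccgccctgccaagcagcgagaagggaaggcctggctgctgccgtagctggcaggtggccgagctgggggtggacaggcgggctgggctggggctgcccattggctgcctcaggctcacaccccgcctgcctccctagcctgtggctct
A second Tef window (chr15:81811164-81811463, plus strand) also holds an E-box, at base 113. Arntl and Per1 each have a further window in which none of these sites was found. Of all 32851 windows in the table, 7.15% hold the E-box, 4.68% the variant E-box, 1.06% a D-box and 6.45% a RORE. Clock, Npas2, Nr1d2 and Dbp have windows without these letters, which says nothing about sites elsewhere. A match is a run of letters, and binding was not measured.

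All values below are log2 signals after the authors' RMA normalization, so 1 unit is a 2-fold difference, and signals of different probe sets are not compared with each other. As a check of the labels, Lrat read 5.81, 5.78 and 5.73 in the wild type, 7.29, 7.34 and 7.38 in hearts labelled Lrat-/- with the sufficient diet, and 6.84, 6.78 and 6.96 in those with the deficient diet. The signal was thus higher, not lower, on the arrays labelled Lrat-/- (by 1.57 ± 0.07, standard error, on the sufficient diet; limma, adjusted p = 1.87e-05). Where the probes lie relative to the deleted part is not given, so the signal does not settle the genotype, and Lrat-/- below means labelled so. The 8 ventricular muscle markers had a mean of 13.40 to 13.57 on every array. The 4 atrial markers had a mean of 7.84 to 8.67, with Nppa at 9.52 to 12.30, Myl4 at 8.50 to 9.27, Myl7 at 7.03 to 8.39 and Sln at 4.93 to 5.39. The tissue is bulk, so fewer cells of a type and less RNA per cell cannot be told apart.

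Among the activators, Arntl had the widest range of the 10 genes. Wild-type arrays 1, 2 and 3 read 7.98, 6.22 and 8.57. With the sufficient diet the Lrat-/- arrays read 7.50, 5.92 and 6.24, and on the deficient diet 8.01, 6.09 and 6.97. Each group thus held both high and low arrays, and the one numbered 2 was the lowest in all 3 groups. The span from the lowest to the highest array was 2.65 log2 units, or 6.29-fold, while the group means were 7.59 ± 1.22 (SD, n = 3), 6.55 ± 0.84 and 7.02 ± 0.96.

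Clock, the DNA-binding partner of ARNTL, read 8.86, 8.25 and 8.55 in the wild type. The Lrat-/- arrays read 8.76, 8.25 and 8.26 with the sufficient diet and 8.74, 8.04 and 8.37 with the deficient one. Array 1 was highest and array 2 lowest in all 3 groups, and its span of 0.82 log2 units was smaller than that of Arntl.

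Npas2 encodes the alternative partner of ARNTL, and its probe sets did not move together (r = -0.42 over 9 arrays). The brighter one, chosen by the rule, read 12.72, 13.03 and 13.03 in the wild type, 12.95, 13.00 and 12.91 in Lrat-/- given the sufficient diet, and 13.06, 13.00 and 13.13 on the deficient diet. The dimmer one read 8.43, 6.72 and 8.09 in the wild type, 7.64, 6.83 and 6.99 in Lrat-/- given the sufficient diet, and 7.93, 6.72 and 7.29 on the deficient diet. The brighter set was nearly flat, whereas the dimmer set was high and low on the same arrays as Arntl. For Npas2, Nr1d2 and Dbp, what is said of the gene's pattern therefore depends on the probe set, and the dimmer sets were added after their values were seen.

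The Per genes encode the inhibitors of the loop. Per1 read 7.89, 8.83 and 7.65 in the wild type, 8.51, 8.83 and 8.27 in Lrat-/- given the sufficient diet, and 8.46, 8.61 and 8.13 on the deficient diet. Array 2 was the highest of its group and array 3 the lowest in all 3 groups. Per2 read 7.01, 8.28 and 6.63 in the wild type. On the Lrat-/- arrays Per2 read 7.56, 8.43 and 8.00 with the sufficient diet and 7.42, 8.16 and 7.54 with the deficient diet. Its span of 1.80 log2 units, or 3.47-fold, was the largest of the 3 Per genes, and it was highest where Arntl was lowest. Per3 read 7.15, 8.10 and 6.79 in the wild type, 7.41, 7.90 and 7.88 in Lrat-/- given the sufficient diet, and 7.35, 7.95 and 7.56 on the deficient diet. For all 3 genes, wild-type array 2 lay far above wild-type arrays 1 and 3, and the wild-type group alone spanned 1.18 log2 units for Per1, 1.65 for Per2 and 1.31 for Per3.

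NR1D1 and NR1D2 are the nuclear receptors that repress Arntl. Nr1d1 read 11.06, 11.24 and 11.24 in the wild type, 11.53, 10.75 and 11.21 in Lrat-/- given the sufficient diet, and 11.48, 10.92 and 11.46 on the deficient diet. Its wild-type arrays lay within 0.18 log2 units, and its lowest arrays were those numbered 2 of both Lrat-/- groups. The brighter Nr1d2 probe set read 12.77, 13.06 and 12.95 in the wild type, 12.78, 12.95 and 13.04 in Lrat-/- given the sufficient diet, and 13.00, 12.89 and 13.02 on the deficient diet. The dimmer Nr1d2 probe set read 10.04, 10.67 and 9.81 in the wild type, 10.31, 10.56 and 10.57 in Lrat-/- given the sufficient diet, and 9.93, 10.43 and 10.29 on the deficient diet. The dimmer set followed the Per genes, while the brighter set spanned 0.30 log2 units.

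The output factors DBP and TEF belong to the PAR-bZIP family, whose genes are direct targets of the ARNTL pair. The brighter Dbp probe set read 13.31, 13.31 and 13.34 in the wild type, 13.27, 13.34 and 13.14 in Lrat-/- given the sufficient diet, and 13.34, 13.38 and 13.21 on the deficient diet. The dimmer Dbp probe set read 9.23, 10.76 and 9.43 in the wild type, 10.30, 10.64 and 10.60 in Lrat-/- given the sufficient diet, and 9.88, 10.80 and 10.41 on the deficient diet. The brighter set lay within 0.24 log2 units on all arrays, and the dimmer set spanned 1.58, or 2.98-fold. Tef read 8.46, 9.33 and 8.15 in the wild type, 8.66, 9.20 and 9.08 in Lrat-/- given the sufficient diet, and 8.48, 8.93 and 8.73 on the deficient diet. Tef was highest on array 2 of every group, as were Per1, Per2, Per3 and the dimmer Dbp set.

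**Figure D1:**
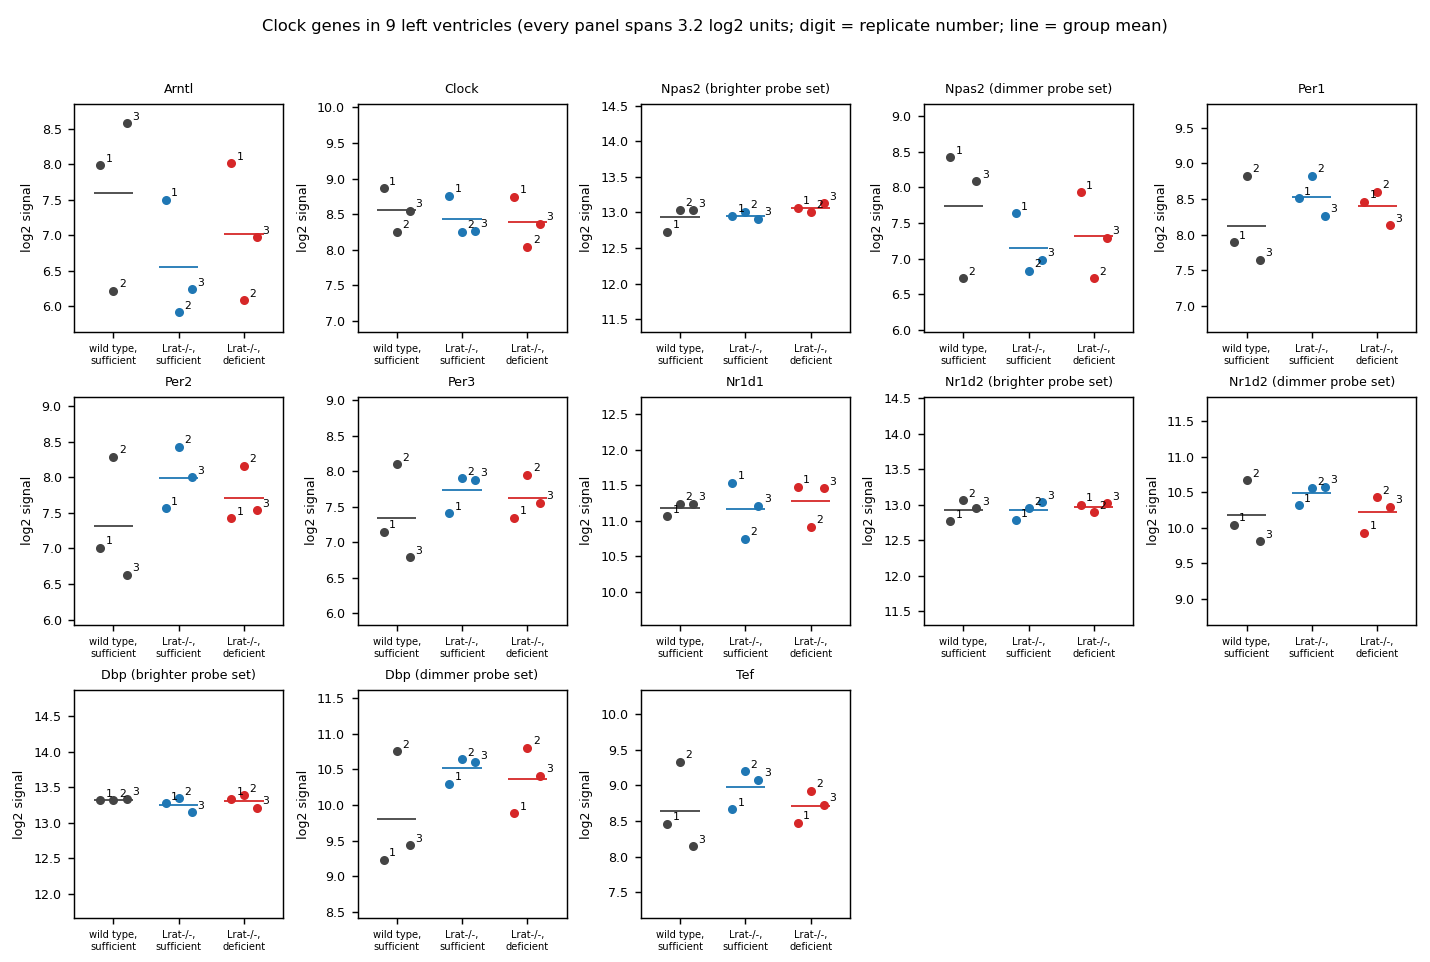
Log2 signal of each clock gene (y axis, every panel spanning the same number of log2 units) on the 9 arrays, grouped on the x axis by genotype and diet in the order wild type sufficient, Lrat-/- sufficient, Lrat-/- deficient, with the group mean as a line and the replicate number beside each point. In all 3 groups Arntl is lowest and Per2 highest on the array numbered 2, and no gene has groups that do not overlap.

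The question the groups ask is whether the absence of Lrat or of dietary vitamin A altered the level of clock genes in the heart. None of the 10 genes passed limma's test at an adjusted p of 0.05 in any comparison. For Lrat-/- against wild type on the sufficient diet, 0 of 10 passed, where 0.134% of the 23069 genes did. With the deficient against the sufficient diet in Lrat-/-, 0 of 10 passed and the share over all genes was 0%, that is 0 genes by limma, with 1010 genes (4.38%) at an unadjusted p under 0.05. For Lrat-/- on the deficient diet against wild type, 0 of 10 passed against 0.13% of all genes, and in the F test over the 3 groups 0 of 10 passed against 0.121%. At an unadjusted p under 0.05 the count was also 0 of 10 in each of these tests, where 6.9%, 4.38%, 9.04% and 7.14% of all genes had one. That count of 0 depends on wild-type array 2 and on the term for replicate number. Without wild-type array 2, Arntl, Per1, Per2, Per3 and Tef had an unadjusted p under 0.05 for genotype, and Per1, Per2 and Per3 for both changes together. With replicate number as a block, Arntl, Per1 and Per2 had one for genotype. Their adjusted p remained at 0.412 or above (limma). No clock gene had groups that did not overlap, where 7.96% of all genes did for genotype, 9.67% for diet and 11.5% for both together. With only 10 genes, a count of 0 lies near these shares. In the authors' deposited table, likewise, 0 of the 13 probe sets had a p under 0.05 in any of its 4 tests, the lowest being 0.180 for the dimmer Dbp set between genotypes.

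The estimates behind these counts were wide. Arntl was 1.04 ± 0.67 log2 units lower in Lrat-/- than in wild type on the sufficient diet (95% interval -2.55 to 0.47; limma, adjusted p = 0.795). Per2 was 0.69 ± 0.40 higher in the same comparison (interval -0.21 to 1.59; limma, adjusted p = 0.770, the lowest of the 10). Per1 differed by 0.41 ± 0.28, Per3 by 0.38 ± 0.31 and Tef by 0.33 ± 0.28, while Clock, Npas2, Nr1d1, Nr1d2 and Dbp by the brighter sets lay between -0.13 and 0.03. With 1 array left out the estimate went from 0.18 to 0.77 for Per1, from 0.11 to 0.76 for Per3 and from 0.083 to 0.68 for Tef, each highest without wild-type array 2. A difference of 1 log2 unit for Per2 lies inside its interval, so a p that misses the threshold does not show that genotypes were alike. The dimmer Dbp set differed by 0.71 ± 0.37 (interval -0.12 to 1.54), the dimmer Npas2 set by -0.60 ± 0.45 and the dimmer Nr1d2 set by 0.31 ± 0.21 (limma, adjusted p = 0.751 to 0.824).

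Between the diets within Lrat-/-, Arntl was 0.47 ± 0.67 higher on the deficient diet (interval -1.04 to 1.98), Per2 0.29 ± 0.40 lower (interval -1.19 to 0.61) and Tef 0.27 ± 0.28 lower (interval -0.89 to 0.35). Every adjusted p of the 10 genes was at least 0.959 (limma). These errors and intervals ignore the pairing of same-numbered Lrat-/- arrays that is described below. At every replicate number Arntl was higher, and Per2 and Tef were lower, on the deficient diet. With replicate number as a block, which also takes in the wild-type arrays, the lowest unadjusted p for diet was 0.198 (limma). With both genotype and diet changed, Arntl stood at -0.57 ± 0.67 and Per2 at 0.40 ± 0.40, and the lowest adjusted p was 0.688, for Npas2 at 0.14 ± 0.09. The wild-type arrays enter both comparisons with the wild type, and the Lrat-/- arrays on the sufficient diet enter those of genotype and of diet, so the 3 sets of values share samples. In size, the 10 genes had a median absolute difference of 0.23 for genotype against 0.08 over all genes, 0.12 against 0.07 for diet, and 0.15 against 0.08 for both. Their spread within groups was also larger, with a median residual SD of 0.36 against 0.12 over all genes. These sizes therefore cannot be read apart from that spread. The authors' deposited table gave Arntl a ratio of 0.537 between genotypes and 1.26 between diets, and Per2 a ratio of 1.56 and 0.850.

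**Figure D2:**
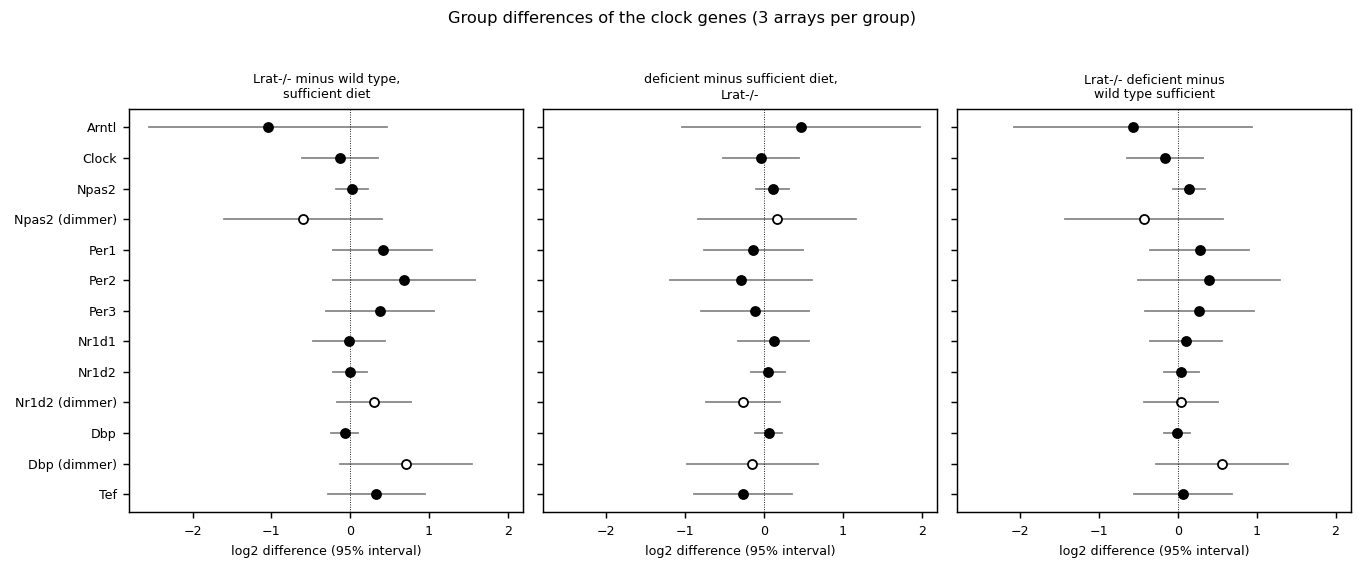
Log2 difference of each clock gene (x axis) in the 3 comparisons, with 3 arrays per group; points are limma estimates, filled for the rule's probe set and open for the dimmer one, and lines are 95% intervals. Every interval includes 0, and that of Arntl between genotypes runs from -2.55 to 0.47.

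Within groups, most of the clock genes varied more than the median gene. The residual SD of limma's fit, which measures how far arrays of the same group lie from their mean, was 1.02 log2 units for Arntl, rank 10 from the largest of 23069 genes. It was 0.60 for Per2 (rank 89), 0.46 for Per3 (rank 238), 0.42 for Per1 (rank 325) and 0.41 for Tef (rank 345). Clock had 0.32 and Nr1d1 0.30. By the brighter sets Npas2 had 0.11, Nr1d2 0.12 and Dbp 0.078, near or below the median of 0.12 over all genes. By the dimmer sets Npas2 had 0.67 (rank 63), Dbp 0.56 (rank 124) and Nr1d2 0.31 (rank 888). A value of 0.23 marks the 90th percentile of all genes, and 7 of the 10 clock genes exceeded it, or 10 of 10 with the dimmer sets. These ranks are a description and carry no test.

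**Figure D3:**
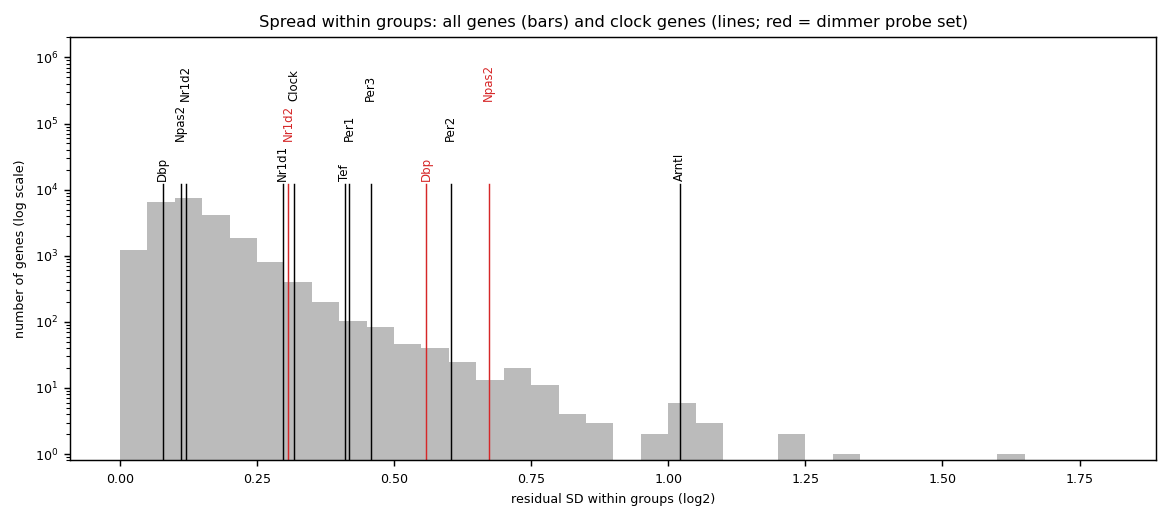
Residual SD within groups in log2 units (x axis) for all 23069 genes (bars, number of genes on a log y axis), with lines at the clock genes, black for the rule's probe sets and red for the dimmer sets. Arntl, at 1.02, has rank 10, while the brighter Dbp, Npas2 and Nr1d2 sets lie at 0.078 to 0.12 in the bulk of genes.

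Across single arrays, Arntl ran opposite to Per2, Per3 and Tef. Arntl and Per2 had a Pearson r of -0.957 over the 9 arrays and a Spearman rho of -0.95 (two-sided exact permutation over 362880 orders, p = 6.06e-05 for r and 0.000353 for rho; adjusted over 45 pairs, 0.00116 and 0.00529). Without the 2 arrays farthest from the median of Arntl, r was -0.925, and over deviations from the group means it was -0.947. This permutation treats the 9 arrays as exchangeable, although same-numbered arrays of both Lrat-/- groups deviated together over all genes. Opposite signs also held between Arntl and Per3 (r = -0.963, rho = -0.917) and between Arntl and Tef (r = -0.948, rho = -0.90; exact permutation, adjusted p = 0.00116 for each r). The inhibitors and Tef moved together, with an r of 0.974 for Per2 with Per3, 0.967 for Per3 with Tef and 0.958 for Per2 with Tef. Clock followed Arntl at r = 0.838 and rho = 0.80 (exact permutation, adjusted p = 0.0406 for r and 0.0519 for rho).

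Of the 45 pairs of the rule's probe sets, 10 passed an adjusted p of 0.05 by r, 7 positive and 3 negative, and 8 passed by rho. All 10 lie among Arntl, Clock, Per1, Per2, Per3 and Tef. When arrays were permuted only within their groups, an alternative added after seeing the data, 6 of 45 passed, those among Arntl, Per2, Per3 and Tef (exact permutation over 216 orders, adjusted p = 0.0347 for each, from the smallest p these orders allow, 0.00463). With the numbers of both Lrat-/- groups also kept together, only 36 orders remain, the smallest p is 0.0278, and 0 of 45 passed, with 6 at that test's unadjusted p under 0.05. Those of Per1 rest partly on wild-type arrays 1 and 3, the farthest from its median. Without them r went from 0.838 to 0.517 for Per1 with Per3, from 0.816 to 0.568 for Per1 with Tef, and from 0.905 to 0.708 for Per1 with Per2. The other 7 pairs kept an absolute r of at least 0.905 without their 2 farthest arrays.

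The dimmer sets of Npas2, Nr1d2 and Dbp were also put in place of the brighter ones, an alternative chosen after seeing the data. With them 33 of 45 pairs passed by r and 34 by rho, and 23 passed by r when arrays were permuted within groups. With the numbers of both Lrat-/- groups also kept together, 0 of 45 passed, with 13 at that test's unadjusted p under 0.05. By the dimmer sets Npas2 and Dbp ran in exactly opposite order over the 9 arrays (rho = -1, r = -0.970; exact permutation, adjusted p = 0.000124 for r, from the smallest p that 9 arrays allow, 2.76e-06). With the numbers kept together, the adjusted p of this pair was 0.0962 (exact permutation, from the smallest p those orders allow). Arntl and Npas2 moved together (r = 0.948), as did Nr1d2 and Tef (r = 0.973), and Arntl ran against Nr1d2 (r = -0.945) and Dbp (r = -0.913; exact permutation, adjusted p = 0.000620 to 0.00149 for these 4 r). None of the 9 pairs of Nr1d1 passed, with r from -0.42 (Per2) to 0.51 (Arntl) and adjusted p of 0.203 to 0.617 (exact permutation). The pairs of Per1 again rest partly on a few arrays: without wild-type arrays 1 and 3, r went from 0.803 to 0.389 for Per1 with Dbp, while for Per1 with Arntl it went from -0.751 to -0.503 without wild-type array 3 and array 2 of Lrat-/- on the sufficient diet. In the test over all orders of the 9 arrays, the remaining pairs that missed were those of Clock with Per1 (r = -0.47), Nr1d2 (r = -0.70) and Tef (r = -0.71).

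**Figure D4:**
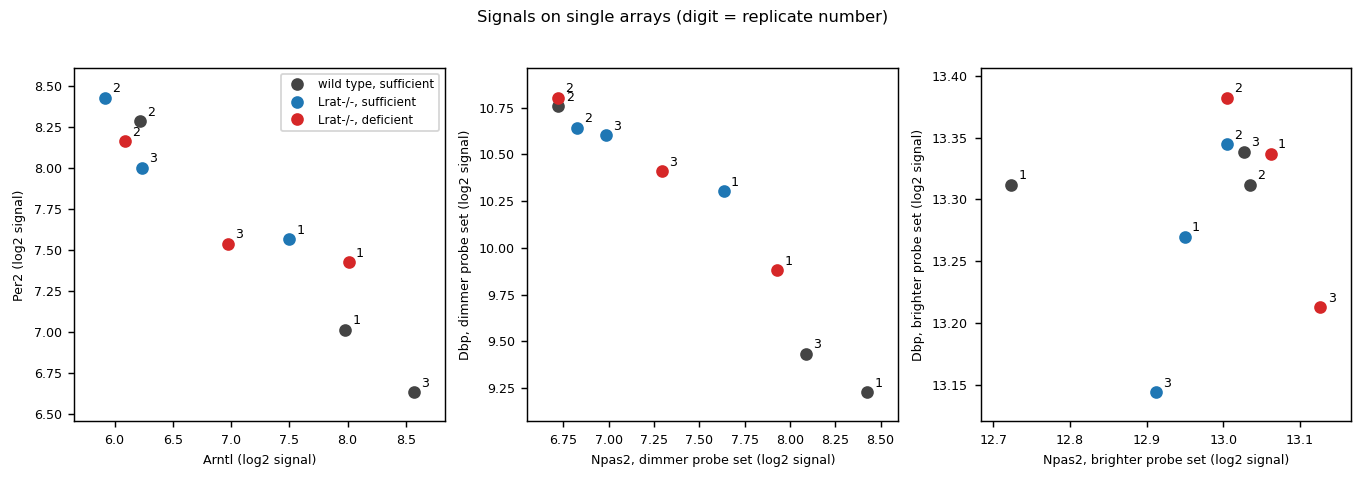
Log2 signals of pairs of clock genes on the 9 arrays, coloured by group and numbered by replicate: Per2 against Arntl (left), and Dbp against Npas2 by their dimmer (middle) and brighter probe sets (right). The first 2 panels fall along a descending line (r = -0.957 and -0.970) with all 3 groups spread along it, and the brighter sets show no such line.

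**Figure D5:**
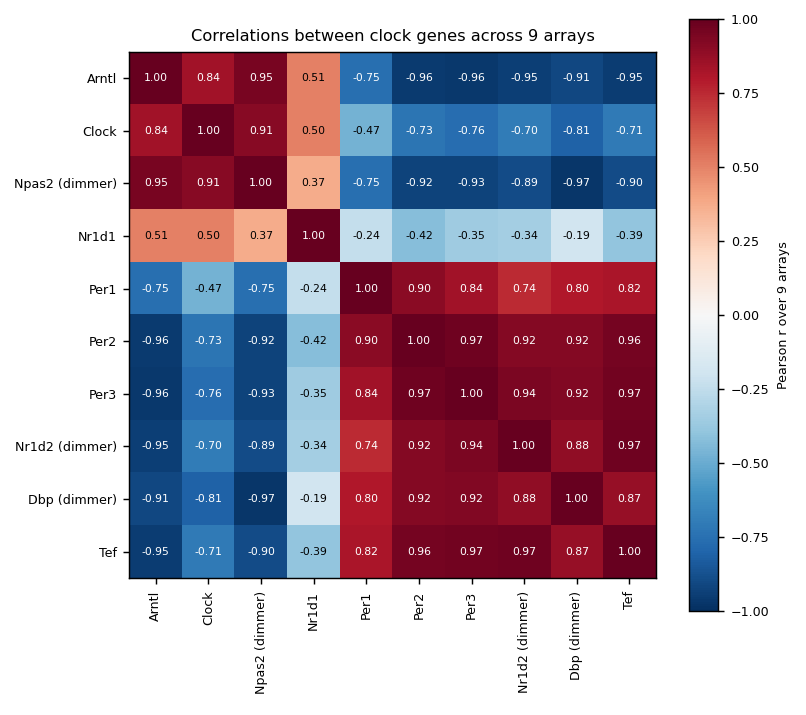
Pearson r over 9 arrays for each pair of the 10 clock genes, with the dimmer sets of Npas2, Nr1d2 and Dbp; red marks positive and blue negative values. Arntl, Clock and Npas2 form one block and Per1, Per2, Per3, Nr1d2, Dbp and Tef another of opposite sign, with Nr1d1 weakly related to both.

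Arrays of the same replicate number held the same place in the order of several clock genes in all 3 groups. Replicate numbers say nothing in the labels about the hour of collection, and this comparison was added after the values had been seen. The differences between numbers are therefore a description. In an F test for replicate number over all genes, 0 genes passed the threshold for the adjusted p (limma). For Clock, Arntl and Per2 the adjusted p of that test was 0.872, 0.875 and 0.875. Their unadjusted p was 0.000326, 0.00443 and 0.00365. Clock differed by -0.61 ± 0.08 between arrays numbered 2 and 1, lower in 3 of 3 groups. On arrays numbered 2 against those numbered 1, Arntl differed by -1.76 ± 0.36 and Per2 by 0.96 ± 0.21, each with that sign in 3 of 3 groups. Whether arrays of a number share a day, an hour or a handling step was not tested.

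Other genes of the core loop, 13 listed and all measured, had no member past the threshold in any comparison by limma, and 1 for genotype, 1 for diet and 2 for both had an unadjusted p under 0.05. In this list and those that follow, such counts stand against 6.9%, 4.38% and 9.04% of all genes for genotype, diet and both. Ciart, a repressor of the CLOCK and ARNTL pair that the files list under an older symbol, read 7.14, 9.93 and 7.94 in the wild type, 8.68, 10.03 and 9.68 in Lrat-/- given the sufficient diet, and 8.31, 10.30 and 9.15 on the deficient diet. It was highest on array 2 of every group, with a residual SD of 1.09 and an r of -0.93 with Arntl over 9 arrays. Hlf, a further PAR-bZIP gene, had an r of -0.92 with Arntl and 0.97 with Per2. Cry2 and Cry1, partners of the PER proteins, had -0.85 and -0.77 with Arntl, and Bhlhe41, a repressor that binds E-boxes, had -0.84. Nfil3, which represses through D-boxes, had an r of 0.63 with Arntl. Rora and Rorb encode activators of Arntl that act through ROREs and had -0.21 and 0.15. Bhlhe40, Arntl2, Timeless and Tipin, had r with Arntl between -0.54 and 0.29. Correlations with genes outside the 10 are descriptions over the same 9 arrays, with no test.

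Of 16 genes for enzymes that modify clock proteins (kinases, phosphatases, ubiquitin ligases, the deubiquitinase Usp2 and the deacetylase Sirt1), 0 passed in any comparison by limma (0 for genotype, 2 for diet and 1 for both at an unadjusted p under 0.05), 14 of 16 were lower on the deficient diet (12 to 14 with 1 array left out), and 1 of 16, Usp2, had a residual SD above the 90th percentile. Prkaa2, a catalytic subunit of AMP-activated kinase, had the lowest p of them, at -0.37 ± 0.11 for both changes together (unadjusted p = 0.00861; limma, adjusted p = 0.383). Among genes reported as clock-controlled in the heart, 18 of 20 were measured and 0 passed by limma, with 3, 2 and 3 at an unadjusted p under 0.05. Tspan4, a tetraspanin, read 9.29, 10.39 and 8.99 in the wild type, 9.49, 10.03 and 10.15 in Lrat-/- given the sufficient diet, and 9.31, 9.90 and 9.71 on the deficient diet. Its r with Arntl was -0.94, and that of Wee1, a kinase that holds back cell division and is named here after its values were seen, was -0.89. Tcap, a protein of the sarcomere's titin anchor, was 0.47 ± 0.13 higher in Lrat-/- than in wild type on the sufficient diet and had an r of 0.83 with Per2 (unadjusted p = 0.00521; limma, adjusted p = 0.436). The potassium channel gene Kcnh2 had an r of -0.35 with Arntl.

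Glucocorticoids also act on Per1, through a response element at the gene. Of 14 glucocorticoid-induced genes 0 passed in any comparison by limma, also 0 at an unadjusted p under 0.05, and 13 of 14 had a residual SD above the 90th percentile of all genes. Zbtb16, a zinc finger repressor, read 8.30, 9.28 and 8.01 in the wild type, 8.98, 10.14 and 8.89 in Lrat-/- given the sufficient diet, and 9.25, 9.34 and 8.81 on the deficient diet. Like Per1 it was highest on array 2 and lowest on array 3 of every group. Over the 14 genes r with Per1 ran from -0.33 for Cdkn1a, an inhibitor of the cell cycle, to 0.92 for Zbtb16, with a median of 0.51, and 11 were above 0. Next to Zbtb16 were Tsc22d3 (the anti-inflammatory factor GILZ) at 0.90 and Fkbp5 (a co-chaperone of the glucocorticoid receptor) at 0.89. With Arntl these 3 genes had -0.75, -0.49 and -0.54, and Cdkn1a had 0.79. Mt1, a metallothionein, had 0.32 with Per1.

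In 4 further lists 0 genes passed in any comparison by limma. At an unadjusted p under 0.05 there were, for genotype, diet and both in turn, 3, 0 and 0 temperature-responsive, 3, 0 and 2 immediate early, 0, 1 and 2 retinoid receptor and 1, 2 and 0 fasting-induced genes. All 10 temperature-responsive genes were lower in Lrat-/- than in wild type on the sufficient diet, with a median of -0.41 against -0.00089 over all genes, and Hspb1, a small heat-shock protein, had an r of 0.82 with Arntl. Of 16 immediate early genes 14 were lower in the same comparison, with a median of -0.35. The immediate early count rests largely on wild-type array 1, and the temperature-responsive median does so in part. That array stood apart for some members of both lists. For Egr1, an immediate early transcription factor, the wild-type arrays read 10.79, 8.00 and 8.00. For Hspa1a, an inducible heat-shock protein, they read 8.67, 7.16 and 7.19. Rbm3, also in the temperature list, was instead lowest of the wild type on that array (11.99, 12.69 and 12.37). Without that array, 9 of the 16 immediate early genes were lower, with a median of -0.042, and 8 of the 10 temperature-responsive genes, with a median of -0.19. The 14 retinoid receptors and clock partners were all lower on the deficient diet (12 to 14 with 1 array left out), with a median of -0.13, and 0 of them had a residual SD above the 90th percentile. Rarb, itself a target of retinoic acid, was 0.23 ± 0.08 lower (unadjusted p = 0.0197; limma, adjusted p = 0.959). Of 12 fasting-induced genes, Txnip, a thioredoxin inhibitor, was 0.44 ± 0.10 lower on the deficient diet (unadjusted p = 0.00143; limma, adjusted p = 0.914) and had an r of -0.29 with Arntl. Txnip was also 0.37 ± 0.10 higher in Lrat-/- than in wild type on the sufficient diet (unadjusted p = 0.00429; limma, adjusted p = 0.409). With both changed it differed from wild type by -0.07 ± 0.10.

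The genes whose pattern over the 9 arrays was most like that of Arntl were taken from 9997 genes with a mean of at least 7 and a functional symbol. Among the highest r were those of Slc41a3 (0.961), Tubb2a (0.952), Parp2 (0.949) and Dtx4 (0.923). At the other end were Per3, Per2 and Tef, then Tspan4 (-0.942) and Rhobtb1 (-0.941). In all, 12 genes had an r of at least 0.9 with Arntl and 8 of at most -0.9. For Dbp the answer depended on the probe set. The genes closest to the dimmer set included Bhlhe41 (0.949), Mid1ip1 (0.946), Hlf (0.934) and Per3 (0.922), and those farthest from it were Dtx4 (-0.967), Slc41a3 (-0.966), Ypel2 (-0.943), Rasl11a (-0.939) and Vstm4 (-0.938). The brighter set was closest to Tspan11 (0.989), Abhd14b (0.981), Adrm1 (0.970), Sgta (0.968) and Ddx24 (0.956), and farthest from B3galnt2 (-0.971), Hnrnph1 (-0.961), Atrn (-0.941), Pan2 (-0.917) and Hbs1l (-0.915). No clock gene is among these 10, and the brighter set spans only 0.24 log2 units.

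Cell type markers were set beside the clock pattern. By limma 0 of the 49 measured markers of 11 cell types passed in any comparison, and 19, all 3 erythroid markers among them, had an unadjusted p under 0.05 in at least 1, where 15% of all genes had one. The mean of the 4 macrophage markers, which ranged from 10.88 to 10.91 in the wild type, 10.60 to 11.03 in Lrat-/- given the sufficient diet and 10.67 to 10.89 on the deficient diet, had an r of 0.71 with Arntl. The 4 smooth muscle markers had an r of -0.54 with Arntl, and the ventricular markers 0.45. The 3 measured erythroid markers had means of 7.13 to 8.13 in the wild type, 8.52 to 8.94 in Lrat-/- given the sufficient diet and 8.74 to 10.04 on the deficient diet, with an r of -0.20 with Arntl. The part of these cell types in the clock values was not tested.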

How the data were processed

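RNA of left ventricles was measured on 9 Affymetrix MoGene arrays, 3 per group. The authors deposited log2 signals per probe set after RMA, per the submitters' processing notes, which also name R 3.1.2 and build mm8 without a role; the log2 scale was read from the values. The authors' deposited table gives a ratio for each pair of groups and a p-value with a false discovery rate, per the file headers, by a test that is not stated. A further table has 9 value columns headed by codes that match no label, and these were not used. Of 35556 probe sets, 26107 carry a symbol, for 23069 genes, and the probe set with the highest mean stood for a gene. For 55.8% of genes a value recurs exactly on another array, for a reason not given.

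Groups were compared with limma 3.58.1 in R 4.3.3 (lmFit, eBayes, two-sided, all 9 arrays, 6 residual degrees of freedom before moderation), with Benjamini-Hochberg adjustment over all genes at 0.05. The calculation was checked on simulated data. Errors are standard errors beside differences and SDs beside means. Correlations were tested in Python 3.11.15 with numpy 2.4.6 by exact permutation. Figures used matplotlib 3.10.9. The number of arrays limits the precision.

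The members, lists and tests were chosen with earlier results of these data known. Named were all 10 members, Lrat, the other core clock genes, of each list up to 4 genes with the lowest p, markers that move with a member, and the 5 genes with the highest and the lowest r with Arntl and Dbp. Some genes that this rule names are not reported here. The check of replicate numbers correlated deviations from group means over all genes for same-numbered arrays. It gave 0.222, 0.264 and 0.212 between the diets of Lrat-/-, which counts as paired, and -0.142 to 0.125 between wild type and either other group, which does not.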

Additional observations from a re-analysis of the deposited data

How the results depend on the processing

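Under 21 alternatives, 0 of 10 clock genes passed the threshold in any comparison, and the lowest adjusted p was 0.412 (limma). A block for the replicate number left that count at 0 in every comparison and changed no other call of a clock gene or list, though Arntl, Per1 and Per2 then had an unadjusted p of 0.0125 to 0.0276 for genotype, and, with the dimmer sets, Npas2 and Dbp 0.0187 and 0.0161; the numbers pair the arrays only between the diets. Of 630 values of single genes under these alternatives, 570 kept their sign and 60 turned it, all of differences that do not pass, and the cause was not tested except where another probe set is the alternative.

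The number of correlated pairs went from 10 to 33 with the dimmer sets and to 35 with the mean of a gene's probe sets, so it depends on the probe set, and was 7 to 10 with 1 array left out. Permuting arrays within groups gave 6 for the rule's sets and 23 for the dimmer sets. Keeping the numbers of both Lrat-/- groups together gave 0 for either choice, where 36 orders allow no p below 0.0278. For Lrat-/- against wild type on the sufficient diet, the dimmer sets, with or without the block, gave -0.60 for Npas2, 0.31 for Nr1d2 and 0.71 for Dbp, and the mean of the probe sets gave -0.29, 0.15 and 0.32. For diet, they gave -0.27 and -0.15 for Nr1d2 and Dbp (dimmer) and -0.11 and -0.046 (mean). For both together, Npas2 was -0.43 and Dbp 0.56 (dimmer), and -0.15 and 0.27 (mean). Quantile normalization again turned Nr1d1 (0.0088) and Nr1d2 (0.010) for genotype, Nr1d2 (-0.021) and Dbp (-0.017) for diet, and Nr1d2 (-0.011) for both. With array weights, Arntl was -0.43, Clock 0.0064, Npas2 -0.014, Per1 0.12, Per2 0.26, Per3 0.042 and Tef 0.026 for genotype. Arntl and Per2 were thus smaller in size than the -1.04 and 0.69 of the main fit. They were also smaller than any estimate with 1 array left out. With the same weights Clock was 0.021 for diet. For both together array weights gave 0.23 for Arntl, 0.028 for Clock, -0.026 for Per1, -0.090 for Per2, -0.12 for Per3, -0.014 for Nr1d2, 0.0019 for Dbp and -0.29 for Tef. The authors' ratio put Nr1d2 at 0.00069 (log2) for genotype.

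With 1 array left out, these differences spanned 0. For genotype the lowest and highest values were -0.29 and 0.028 for Clock, -0.075 and 0.080 for Npas2, -0.20 and 0.19 for Nr1d1, and -0.084 and 0.067 for Nr1d2. For diet they were -0.023 and 0.94 for Arntl, -0.22 and 0.13 for Clock, -0.27 and 0.0088 for Per1, -0.28 and 0.024 for Per3, -0.088 and 0.30 for Nr1d1, and -0.023 and 0.10 for Nr1d2. For both they were -0.35 and 0.0042 for Clock, -0.0062 and 0.65 for Per3, -0.036 and 0.11 for Nr1d2, -0.046 and 0.039 for Dbp, and -0.19 and 0.41 for Tef. Arntl stayed between -1.72 and -0.55 and Per2 between 0.35 and 1.18 for genotype, both farthest from 0 without wild-type array 2, where unadjusted p ranged from 0.00316 to 0.0192 for Arntl, the Per genes and Tef.

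With 3 arrays per group, differences of the size of the spread within groups were not detectable for Arntl and Per2. Signal over background per probe set was not used here, so the dimmest values, such as Arntl on the arrays numbered 2, carry no statement on detection. The hour of collection is not given, so the clock pattern and the hour cannot be set against each other.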
